A study of Oreochromis niloticus with 16 samples.

Results

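miR-146 was represented in Nile tilapia by 1 hairpin locus, mir-146a, with its 2 arms, miR-146a-5p and miR-146a-3p. All entries whose mature name was miR-146 with an optional letter were taken, from both arms and all copies, which gave 2 of the 734 entries (1 arm at 1 locus each) in the files. No miR-146b or further copy of miR-146a was among them. Each read of either arm had equal whole-number and divided counts in all 16 libraries, so no read of miR-146a was shared with another listed locus. Small RNA was sequenced from fish of the Chitralada strain in 16 libraries. The adult libraries came from ovary, testis, female heart, liver and eye (the last pair of mixed sex), and from brain, red muscle and white muscle of females and males. Which gonad library was ovary and which testis was read from the sample titles and the paper's list of tissues. The stage libraries were whole embryos at 2 and 3 days post-fertilization (dpf), both labelled gastrula and segmentation, at 4 dpf (pharyngula) and at 5 dpf (hatching), and late larvae at 10 dpf. No treatment or allele is named for any library, and each tissue of each sex or each stage had 1 library. The titles of both female muscle libraries carry the same number, as do those of female brain and ovary, so these pairs may come from the same fish. The number of fish behind a library is not given in the sources used here, and p-values therefore speak only of the spread among the libraries. Part of this spread may be technical. Within brain, red muscle and white muscle it lies between a female and a male library, and so includes differences between fish and sexes.

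A miRNA hairpin is cut into a duplex of its 5p and 3p arms, of which 1 is usually loaded into Argonaute to repress messenger RNAs while its partner is degraded. In human and mouse cells miR-146a is a product of the NF-kB pathway. There it represses TRAF6 and IRAK1, which carry the signal of Toll-like and interleukin-1 receptors, and is known as a brake on inflammatory signalling in myeloid and lymphoid cells. Its 5p arm is the one that acts on these targets in mammals.

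Levels are divided counts, in which a read matching several loci is split over them, per 1000000 divided counts in the same library (CPM). These totals ran from 833147 to 11517367 reads, and single miRNAs took up to 58.6% of them (miR-10b-5p at 2 dpf). The labels were checked against miRNAs known to mark each tissue. The liver marker miR-122 reached 452228 CPM in liver, the retina list (miR-183, miR-96 and miR-182) 701621 CPM in eye and the neural list (miR-9, miR-124 and miR-128) 88098 CPM (female) and 69867 CPM (male) in brain. The muscle list (miR-1, miR-133, miR-206 and miR-499) had 36660 CPM (female) and 32865 CPM (male) in red muscle, against 281034 CPM (female) and 310649 CPM (male) in white muscle. Heart (76649 CPM) and 5 dpf (57492 CPM) stood above both red muscle libraries and 10 dpf (34157 CPM) above the male one, so this list did not set red muscle apart. miR-126 of endothelium, with 248823 CPM, stood highest in heart. miR-202 of the gonads had 1165 CPM in ovary and 12187 CPM in testis, against at most 25.4 CPM in the other 14 libraries. The ovary also carried markers of other tissues. Its miR-122 level was 3316.95 CPM, against at most 95.4 CPM (male white muscle) in the other adult libraries outside liver. The retina list had 11188.9 CPM in ovary, against at most 822.1 CPM (female brain) in the other adult libraries outside eye. Stages reached 5959.66 CPM of miR-122 (5 dpf) and 76313.1 CPM of the retina list (10 dpf). The source of these ovary reads was not tested.

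miR-146a-5p, the major arm, was highest in ovary. It held 164475 reads there, or 174634 CPM (exact Poisson 95% interval 173791 to 175480), which was 17.5% of all miRNA reads of the ovary and the second place among its miRNAs after miR-100-5p (23.9%). Testis followed with 41436 CPM (41088 to 41787), then 5 dpf with 30381 CPM (30203 to 30559), 3 dpf with 27678 CPM (27526 to 27830) and liver with 21909 CPM (21660 to 22160). Molecular identifiers were not used, and all such intervals describe the error of counting alone. Both gonads therefore stood above every other library in the miR-146a-5p level. The middle of the order was held by female red muscle with 18508 CPM, male white muscle with 13948 CPM, heart with 11949 CPM, 4 dpf with 11947 CPM, female white muscle with 10837 CPM, 10 dpf with 9747 CPM and eye with 8280 CPM. The lowest levels were those of male brain with 3644 CPM, male red muscle with 3148 CPM, female brain with 2716 CPM and 2 dpf with 1671 CPM (1615 to 1729). The ovary level was 104 times that at 2 dpf, close to the median of 102 for the highest over the lowest library among the 92 miRNAs with at least 10 divided reads in all 16 libraries. Heart and 4 dpf were the only neighbours in this order whose ratio had an interval that held 1 (1.00, 95% interval 0.980 to 1.02). The remaining neighbours differed beyond counting error, but none of these steps had replicates behind it.

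**Figure D1:**
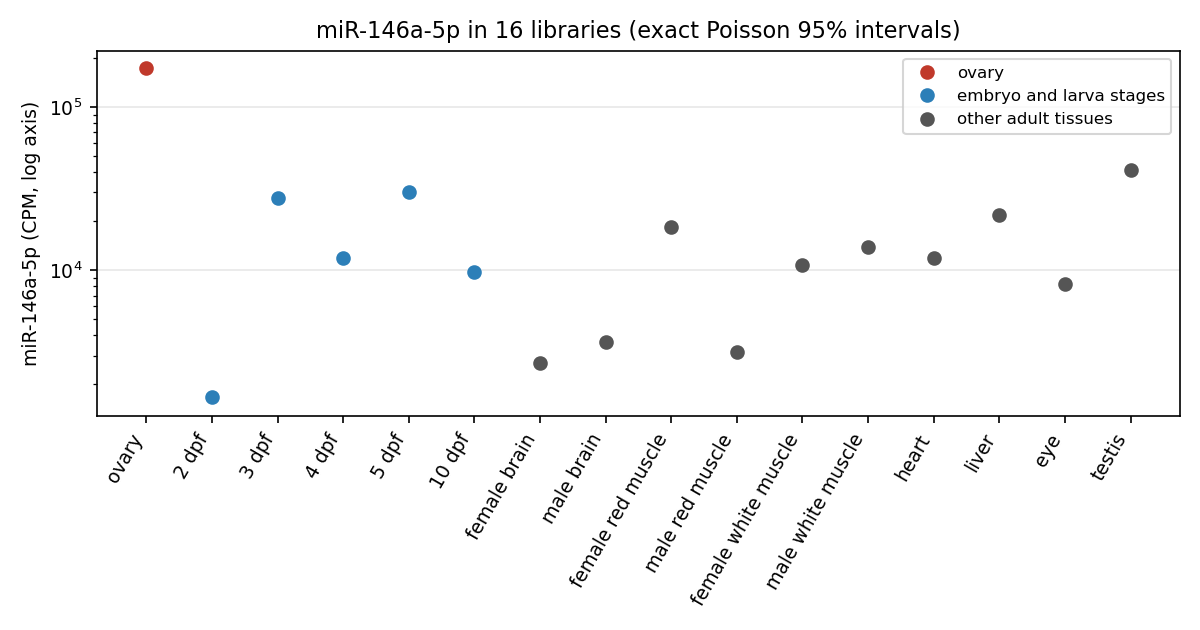
miR-146a-5p in each of the 16 libraries, as CPM of the divided total on a log axis, with 1 point per library and exact Poisson 95% intervals that are smaller than the points. Ovary stands at 174634 CPM and testis at 41436 CPM, above all 14 other libraries, and 2 dpf is lowest at 1671 CPM.

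The ovary was 14.6 times the median of the other 15 libraries (11947 CPM) in miR-146a-5p. Its ratio to single libraries went from 4.21 over testis (4.17 to 4.26) to 104 over 2 dpf (101 to 108), and was 7.97 over liver, 9.44 over female red muscle and 21.1 over eye. Against brain the ovary was 64.3 times female brain and 47.9 times male brain. Among the 92 miRNAs with at least 10 divided reads in all 16 libraries, the median ratio of ovary to the other libraries' median was 1.11, and miR-146a-5p had the second largest such ratio after miR-143-3p, which is known from smooth muscle. There was 1 ovary library, so no test of the ovary was made. Fewer cells of a type and less RNA per cell cannot be told apart in these bulk libraries.

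The first place of the ovary did not depend on how the libraries were scaled. Ovary was highest and testis second with whole-number totals, after leaving out the most abundant miRNA of each library, with TMM factors (trimmed mean of M-values, which correct for composition) and with DESeq2 size factors. The ovary to testis ratio was 3.88, 4.82, 3.20 and 6.01 under these 4 alternatives in the order given. The lower end did depend on scaling. 2 dpf was lowest in CPM and with whole-number totals, female brain without the most abundant miRNA and with TMM, and 10 dpf with DESeq2 size factors. The ovary to 2 dpf ratio was 25.5 with TMM and 20.6 with DESeq2 size factors, against 104 in CPM.

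**Figure D2:**
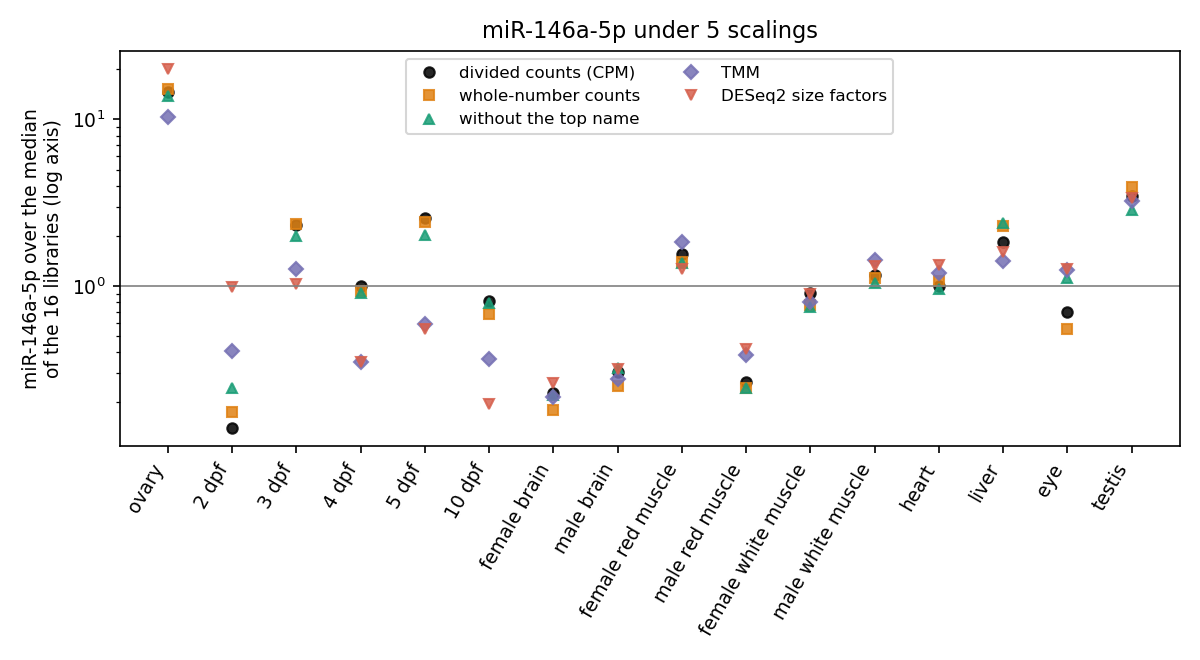
miR-146a-5p in each library divided by the median of the 16 libraries (log axis) under 5 scalings, with 1 symbol per scaling and a line at the median. Ovary is highest and testis second under each scaling, whereas 2 dpf moves most, being lowest in CPM and near the median with DESeq2 size factors.

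miRNAs of other cell types were set beside these levels. The immune cell list held both arms of miR-142a, which marks blood cells in general, and of miR-223, which marks myeloid cells. Neither miR-150 nor miR-155 was among the names found in the files for this list. All 4 names had reads in ovary, and their summed level there was 120 CPM, the 14th of 16, against a range over all libraries of 44.3 CPM (2 dpf) to 3705 CPM (female red muscle) with a median of 579 CPM. The red blood cell list, miR-144 and miR-451, summed to 2996 CPM in ovary, the 9th of 16, against a range of 599 CPM (male brain) to 25989 CPM (3 dpf). Of its 6 names 3 had reads in ovary, with miR-451-3p, miR-451-3p-2 and miR-451-5p at 0 reads. The low place of ovary in the sum was shared by both arms of miR-142a, whereas both arms of miR-223 stood near the middle of the libraries. This sum was led by miR-142a-5p, with 63.7 CPM in ovary and 3559 CPM in female red muscle. The part of immune cells in the ovary level of miR-146a-5p was not tested. miR-142a-3p had 17.0 CPM in ovary, inside its range of 0 CPM (2 dpf) to 326 CPM (10 dpf). miR-223-3p had 31.9 CPM in ovary, inside its range of 1.01 CPM (2 dpf) to 104 CPM (5 dpf). miR-223-5p had 7.43 CPM in ovary, inside its range of 2.34 CPM (heart) to 94.8 CPM (10 dpf). miR-132, which rose with miR-146a in human monocytic cells given bacterial lipopolysaccharide, had 1 of 5 names with reads in ovary and a summed level of 1.06 CPM, against 1353 and 2019 CPM in female and male brain.

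Over the stages, miR-146a-5p had 1671 CPM at 2 dpf, 27678 CPM at 3 dpf, 11947 CPM at 4 dpf, 30381 CPM at 5 dpf and 9747 CPM at 10 dpf. The level thus alternated and had no steady direction in CPM. The 3 dpf library was 16.6 times the 2 dpf library in CPM, and 8.26 times without the most abundant miRNA, 3.11 times with TMM and 1.04 times with DESeq2 size factors. At 2 dpf miR-10b-5p, a miRNA of the Hox clusters, held 58.6% of the reads, against 16.9% at 3 dpf. The ratio of 4 dpf to 3 dpf was 0.432 in CPM and 0.278 with TMM, and that of 10 dpf to 5 dpf was 0.321 in CPM and 0.620 with TMM. The ratio of 5 dpf to 3 dpf turned round, with 1.10 in CPM and 0.469 with TMM. On the log2 of the day, the slope of miR-146a-5p was -0.74 (SE 0.76, edgeR quasi-likelihood test with TMM, adjusted p = 0.604, n = 5 libraries), and with library totals in place of TMM it was 0.16. Of 527 entries tested, 8.54% were called in this trend. The median slope over all entries was 0.15 with TMM and 1.20 with library totals.

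miR-146a-3p, the minor arm, had 37.7 CPM at 2 dpf, 32.1 CPM at 3 dpf, 44.5 CPM at 4 dpf, 49.9 CPM at 5 dpf and 32.4 CPM at 10 dpf. In CPM its highest stage was 1.55 times its lowest, against 18.2 times for the 5p arm. With TMM the order of these spans turned round, with 9.44 times for the 3p arm (2 dpf highest) and 3.59 times for the 5p arm. In the edgeR fit with TMM its slope was -1.69 per doubling of the day (SE 0.60, adjusted p = 0.0560), with adjusted p from 0.0460 to 0.903 over the alternatives. In this fit the spread was shared over all entries, so its p-values do not rest on each miRNA's own scatter over the stages alone. With DESeq2 size factors in edgeR the adjusted p was 0.0461. This slope rested on the 2 dpf library and on the scaling. It was -0.41 without 2 dpf (edgeR, adjusted p = 0.868) and -0.26 with library totals in place of TMM (edgeR, adjusted p = 0.903).

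The 5 stage libraries and the 11 adult libraries overlapped in miR-146a-5p, with 2 dpf below all adult libraries and ovary and testis above all stages. Stages ran from 1671 to 30381 CPM with a median of 11947 CPM, and adult tissues from 2716 to 174634 CPM with a median of 11949 CPM. The mean log2 CPM of the stages minus that of the adult tissues was -0.20 (exact permutation test, two-sided p = 0.848), and without ovary it was 0.18 (p = 0.834). In the edgeR test with TMM the log2 fold change of stages over adult tissues was -1.78 (SE 0.89, adjusted p = 0.172; 0.129 to 0.570 over the alternatives), and it was -1.02 without ovary and -0.90 with library totals. In this comparison 23.1% of 590 entries were called. The scaling moved that split, with 84 entries higher and 52 lower in the stages with TMM, 125 and 26 with library totals, and 75 and 66 with DESeq2 size factors. The median over all entries in this comparison was -0.20 with TMM and 1.13 with library totals. miR-146a-3p ran from 32.1 to 49.9 CPM in the stages, inside its adult range of 4.28 to 275 CPM. Its log2 difference in CPM was 0.61 (exact permutation test, two-sided p = 0.495), and the edgeR log2 fold change was -0.53 (SE 0.91, adjusted p = 0.750), of opposite sign. The edgeR value was -1.70 without 2 dpf (adjusted p = 0.269) and -0.0078 without ovary (adjusted p = 0.997).

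Brain had less miR-146a than skeletal muscle after scaling for composition. miR-146a-5p had 2716 CPM (female) and 3644 CPM (male) in brain, against 18508 CPM (female) and 3148 CPM (male) in red muscle and 10837 CPM (female) and 13948 CPM (male) in white muscle. In CPM the groups overlapped, since male brain stood 1.16 times above male red muscle. With TMM they did not, with 1300 to 1660 TMM-scaled CPM in brain and 2309 to 11029 in muscle. The log2 fold change of brain over the mean of red and white muscle was -2.32 (SE 0.65, edgeR quasi-likelihood test, adjusted p = 0.00727, n = 2 brain and 4 muscle libraries). With library totals in place of TMM it was -2.03 (edgeR, adjusted p = 0.0296). The background was high, as 63.2% of 494 entries were called in this comparison with TMM and 30.6% were called lower in brain. The adjusted p ran from 0.00242 to 0.114 over the alternatives. It was lost without female red muscle (log2 fold change -1.25, adjusted p = 0.114), without female brain (-1.99, adjusted p = 0.0888) and without male brain (-2.19, adjusted p = 0.0618).

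miR-146a-3p was also lower in brain, with 6.69 CPM (female) and 4.28 CPM (male) in brain, against 40.1 CPM (female) and 76.0 CPM (male) in red muscle and 23.4 CPM (female) and 11.9 CPM (male) in white muscle. Both brain libraries lay under all 4 muscle libraries. Its log2 fold change was -3.14 (SE 0.84, edgeR, adjusted p = 0.00598), and without male brain it was -2.49 (adjusted p = 0.0894), within a range of 0.000119 to 0.0894 over the alternatives. The red blood cell list moved in the same direction, and the immune cell list did so in part. Of 6 immune cell entries 3 were lower in brain and 0 were higher, where 30.6% of all 494 entries were called lower. The lower ones were miR-142a-5p at both of its loci (-2.51 and -2.39), which is 1 mature name, and miR-223-3p (-1.76). miR-142a-3p (-0.056 at both of its loci) and miR-223-5p (-0.74) were not called. The list's median was -1.25, against -0.13 over all entries. All 5 red blood cell entries tested, of 6, were lower in brain, with a median of -3.19. Of these, miR-451-3p and miR-451-5p passed the read filter through red muscle alone. They had 0 reads in brain and could only come out lower there. The others were miR-144-3p (-3.19), miR-144-5p (-2.93) and miR-451-5p-2 (-2.85). The summed immune cell level was 466 and 192 CPM in female and male brain, against 3705, 587, 571 and 797 CPM in female red, male red, female white and male white muscle. The summed red blood cell level was 907 and 599 CPM in female and male brain, against 16962, 3723, 1967 and 1597 CPM in the same muscle libraries. The part of blood cells in the miR-146a difference was not tested. miR-132 moved the other way, with 4 of 4 entries tested, of 6, higher in brain (median 5.05, miR-132-5p-2 8.18), where 32.6% of all entries were called higher. Among them, miR-132-3p is 1 mature name at 2 loci (4.85 and 4.91). miR-132-5p passed the read filter only through the brain libraries, the group where it is high.

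Red and white muscle were not told apart by miR-146a-5p. Its level was 18508 CPM in female red and 3148 CPM in male red muscle, against 10837 CPM in female white and 13948 CPM in male white muscle, so that both white muscle values lay between the red ones. As a group, red muscle averaged 10828 ± 10861 CPM and white muscle 12393 ± 2200 CPM (SD, n = 2 each). The log2 fold change of red over white was -0.30 (SE 0.66, edgeR, adjusted p = 0.854), and it changed sign without male red muscle (0.38, adjusted p = 0.866). The adjusted p ran from 0.191 to 1 over the alternatives, and 11.1% of 494 entries were called in this comparison. miR-146a-3p had 40.1 CPM (female) and 76.0 CPM (male) in red muscle, against 23.4 CPM (female) and 11.9 CPM (male) in white muscle. These groups did not overlap, but the log2 fold change of 1.98 (SE 0.85) did not pass the test (edgeR, adjusted p = 0.172; 0.0504 to 0.533 over the alternatives), and without male red muscle it was 0.99. In the same comparison 2 of 5 red blood cell entries rose in red muscle, miR-144-5p (3.33) and miR-451-5p-2 (2.44), where 5.06% of all entries were called higher, and 0 of 6 immune cell entries were called.

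In each of the 3 tissues the female over male ratios of the 2 arms pointed in opposite directions, though the 3p interval in brain held 1. Red muscle had the 5p arm higher and the 3p arm lower in the female library, the reverse of white muscle and brain. For miR-146a-5p red muscle was also the tissue with the largest ratio between the sexes. miR-146a-5p in female red muscle was 5.88 times male red muscle (5.81 to 5.95), and 4.78 times with TMM. In white muscle the female library was 0.777 times the male one (0.767 to 0.787), and in brain 0.745 times (0.730 to 0.761). Over the 3 tissues the log2 fold change of female over male was 0.36 (SE 0.63, edgeR with tissue as a block, adjusted p = 0.993, n = 3 each). It was -0.26 without female red muscle and -0.21 without male red muscle. In this comparison 0% of 494 entries were called by edgeR, 5 entries had an unadjusted p under 0.05, and DESeq2 called 0. miR-146a-3p in female red muscle was 0.527 times male red muscle (0.464 to 0.598), whereas the female library was 1.97 times the male one in white muscle (1.37 to 2.85) and 1.56 times in brain (0.924 to 2.66). The white and red muscle differences of the 3p arm were of like size in CPM, whereas with TMM female over male was 1.43 in white and 0.429 in red muscle. Its log2 fold change over the 3 tissues was 0.05 (SE 0.79, adjusted p = 0.993), and it was below 0 with DESeq2 size factors (-0.086). Each tissue had 1 library per sex, so sex cannot be told apart from the single library. Female red muscle also had the highest immune cell level, 3705 CPM against 587 CPM in male red muscle, and 16962 CPM of the red blood cell list against 3723 CPM; their part in the miR-146a-5p level was not tested.

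**Figure D3:**
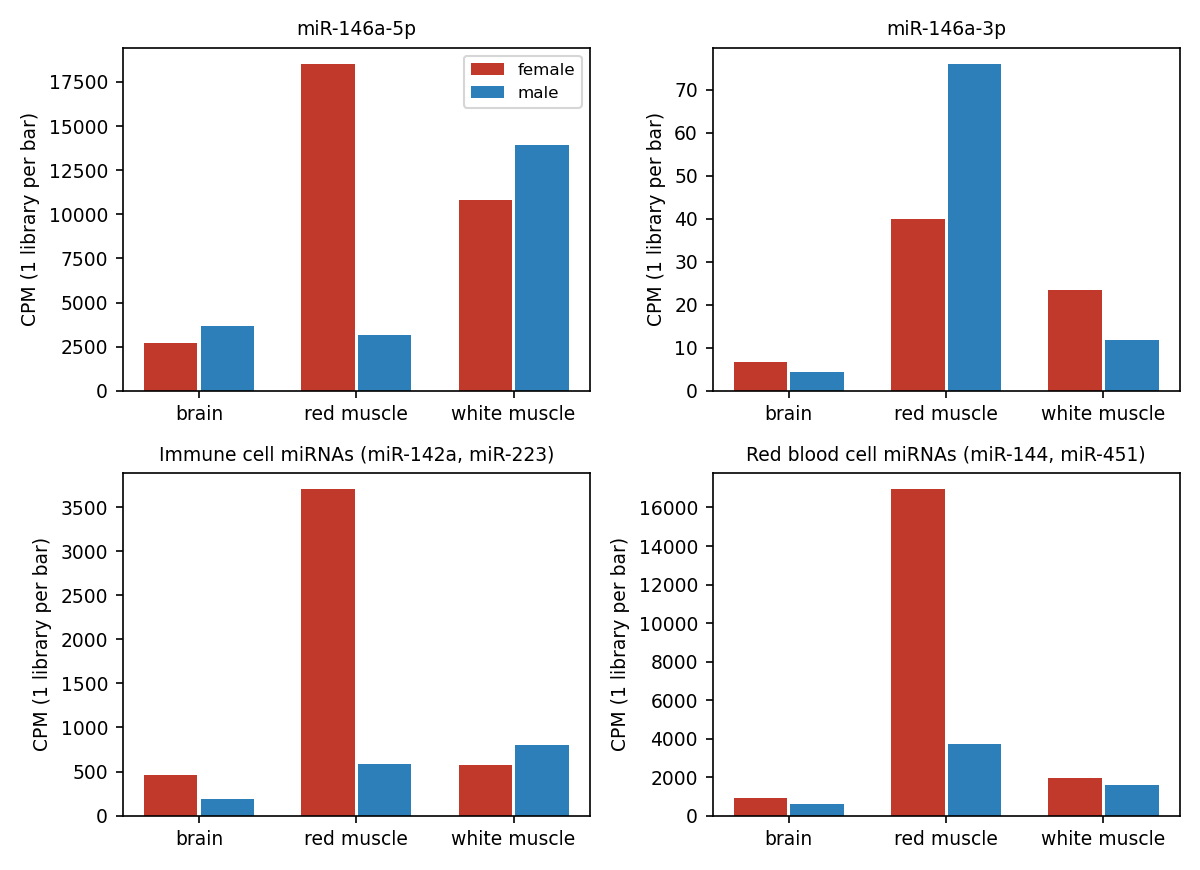
miR-146a-5p, miR-146a-3p and the summed immune cell and red blood cell lists in brain, red muscle and white muscle, as CPM on linear axes from 0, with 1 bar per library for female (left) and male. In red muscle the female library is at 18508 CPM and the male at 3148 CPM of miR-146a-5p, while for miR-146a-3p the bars stand at 40.1 CPM (female) and 76.0 CPM (male).

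The 3p arm followed only part of this pattern. Ovary again was highest, with 259 reads or 275 CPM of miR-146a-3p, 8.49 times the median of the other 15 libraries (32.4 CPM). Male red muscle was second with 76.0 CPM, followed by liver with 54.1 CPM and testis with 51.2 CPM, and the lowest were female brain with 6.69 CPM, eye with 5.49 CPM and male brain with 4.28 CPM. In CPM the smallest ratio of the ovary was 3.62 over male red muscle (3.14 to 4.16), where the 5p arm gave 55.5. Ovary was highest and male brain lowest in the 3p arm under all 5 scalings, but the lead of the ovary depended on them. With TMM it was 1.76 times male red muscle and 1.78 times 2 dpf, and with DESeq2 size factors 2 dpf was second and ovary 1.44 times higher. As a description over the 16 libraries, which differ in depth and composition, log2 CPM of the arms had a Pearson r of 0.59 and a Spearman rho of 0.50. The Pearson r was 0.38 without ovary and 0.72 without male red muscle.

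**Figure D4:**
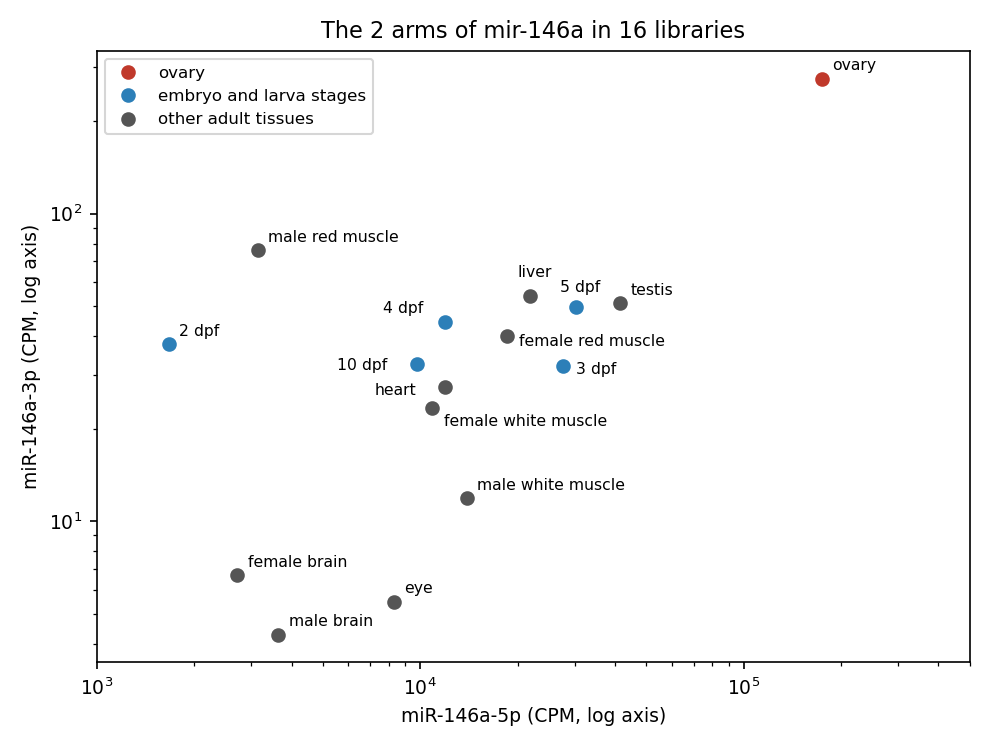
miR-146a-3p against miR-146a-5p, both in CPM on log axes, with 1 point per library for ovary, the stages and the other adult tissues. Ovary is highest in both arms at 174634 and 275 CPM, and male red muscle and 2 dpf have few 5p reads for their 3p level.

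The 5p arm held over 97% of the mir-146a reads in every library. Such a one-sided hairpin was common, since 36 of the 86 hairpins with at least 50 reads in all 16 libraries had 1 dominant arm above 97% throughout, 29 of them the 5p arm. These are whole-number counts, in which hairpins that share a mature arm are counted separately, each with all reads of that arm. The 3p share of mir-146a was 2.36% in male red muscle (Wilson 95% interval 2.21 to 2.52) and 2.21% at 2 dpf (1.76 to 2.76). In the other 14 libraries it lay between 0.0662% (eye, 0.0370 to 0.119) and 0.371% (4 dpf, 0.304 to 0.453), with a median of 0.190%. Ovary was inside that range at 0.157% (0.139 to 0.178), as was testis at 0.123%. Both arms were thus at their highest in ovary, and its arm share was near the middle of the libraries. Female red muscle had a share of 0.216% (0.194 to 0.240), well under that of male red muscle, which held more 3p reads (875) than any other library beside 36261 5p reads.

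The 3p shares at 2 dpf and in male red muscle were set beside those of other hairpins, taken from whole-number counts with copies again counted separately. There were 44 hairpins led by the 5p arm in all 16 libraries, mir-146a among them. Of these, 12 had their highest 3p share at 2 dpf, and the median hairpin had a 3p share there 5.54 times its median in the other libraries. mir-146a had 10.2 times, the 15th place. In male red muscle the median hairpin had 0.486 times its median elsewhere and 2 of 44 had their highest share there, mir-146a among them. mir-146a had 10.9 times, the 5th place. Counted by direction alone, 26 of the 44 hairpins stood above their median in the other libraries at 2 dpf, against 32, 42, 33 and 37 at 3, 4, 5 and 10 dpf, and 15 did so in male red muscle.

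**Figure D5:**
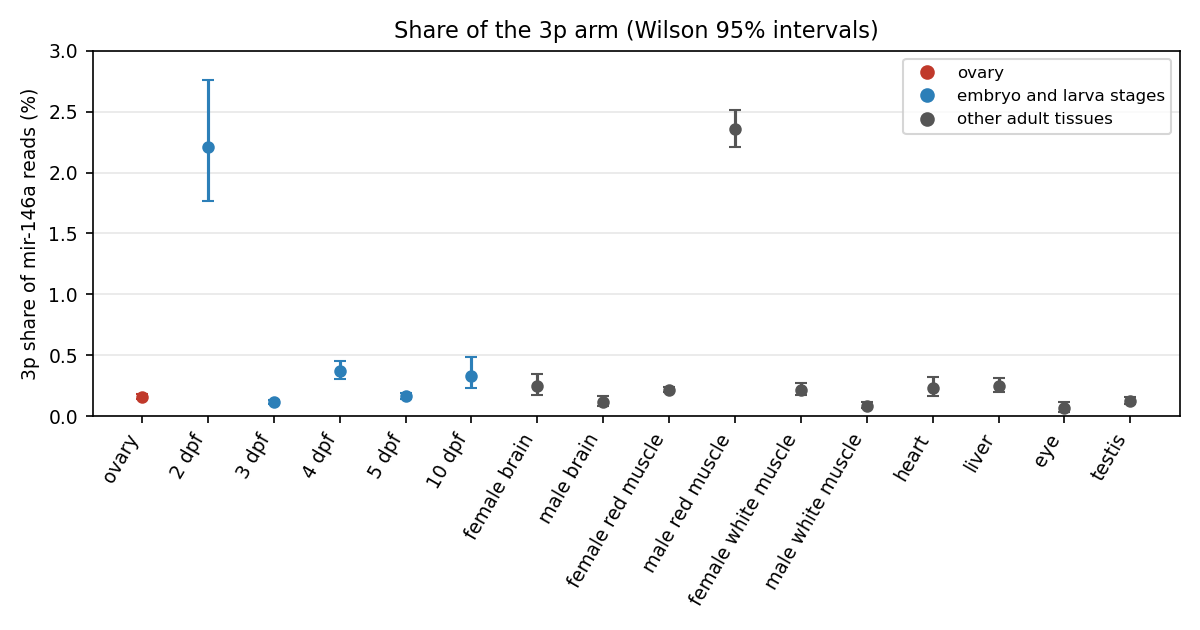
Share of the 3p arm among all mir-146a reads of each library in percent on a linear axis from 0, with Wilson 95% intervals. Male red muscle (2.36%) and 2 dpf (2.21%) lie above the other 14 libraries, which run from 0.0662% to 0.371%.

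Of 252 miRNAs with at least 10 divided reads in at least 8 libraries, the 6 with the pattern most like that of miR-146a-5p by Pearson r of log2(CPM + 1) over the 16 libraries were miR-145-3p (0.76), miR-21-5p (0.71), miR-144-3p (0.68), miR-30b-3p (0.64), miR-143-5p (0.63) and miR-152-5p (0.62). The median over all 252 was 0.20, and all points share the libraries, their depth and their composition. miR-145-3p, of a hairpin known from smooth muscle, had 3692 CPM in ovary and 3605 CPM in testis, against 130 CPM in male brain, its lowest library. miR-21-5p, a widely expressed miRNA, was also highest in ovary (68326 CPM) and lowest at 2 dpf (2112 CPM). miR-144-3p, of red blood cells, was highest in female red muscle with 3231 CPM and had 2833 CPM in ovary. miR-30b-3p had no more than 19.2 CPM in any library. miR-146a-3p itself was 12th with 0.60. The lowest values were those of miR-132-3p and miR-219-3p-2, both at -0.44. miR-132-3p is known from neurons and was highest in male brain (516 CPM), with 0 reads in ovary. The ranking changed with the libraries used, as 0 of the 6 most similar names remained among the first 6 without ovary, and 1 did so by Spearman rho.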

How the data were processed

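Small RNA was extracted with Trizol, made into TruSeq libraries and sequenced on the Illumina GAIIx by the authors. The deposited files, 1 per library, give raw counts per arm and locus, which are whole numbers with a read counted at each locus it matches. Beside them stand estimated counts deposited by the authors, where a read with several loci adds a fraction to each. Neither was normalized. DESeq, with no version, is named in the submitters' processing notes, and the paper names the oreNil2 genome. The counting tool is not given in the sources used here. In each file, 2 of 736 lines named no mature miRNA, held 0 reads and were dropped. The depth per library was 1989045 to 27503766 whole-number counts. A sequence or position for mir-146a is not printed, as no sequence table of this species was used here.

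Levels, intervals and the arm shares of mir-146a were computed from the divided counts in Python 3.11.15 (numpy 2.4.6, pandas 2.3.3, scipy 1.17.1, matplotlib 3.10.9). The arm shares of the hairpins set beside mir-146a came from the whole-number counts, where a read counts in full at each locus it matches. Intervals of ratios are exact conditional binomial intervals at 95%. The whole-number counts were tested with edgeR 4.0.16 under R 4.3.3 (TMM, glmQLFit and glmQLFTest). Entries needed 10 or more reads in 2 or more of the fitted libraries, with Benjamini-Hochberg adjustment over all of them. An entry was called at an adjusted p under 0.05. SE is the absolute log2 fold change divided by the square root of F and is approximate. Brain, red muscle and white muscle shared 1 fit of 6 libraries, the sex fit had tissue as a block, the slope over the stages used the log2 of the day in 5 libraries, and stages were set against adult tissues over all 16. Sex, and ovary or testis for the gonad libraries, were taken from the sample titles and the paper's list of tissues. DESeq2 1.42.0, its size factors, library totals, no filter on low counts, the sex block, the day itself and leaving out single libraries were the alternatives. The fits were also run on simulated data in which all libraries shared the same mean profile apart from the changed entries. Such data do not cover the differences in composition among these libraries.

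The named miRNAs are all miR-146 names, the 6 highest and 2 lowest correlations with miR-146a-5p, the immune cell, lipopolysaccharide and red blood cell lists, tissue markers, and the most abundant miRNA of a library. These members, lists and tests were chosen with earlier results of these data known.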

Additional observations from a re-analysis of the deposited data

Results flagged for a closer look

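No group held more than 2 libraries, so a search for outlying samples within a group was not possible. The results listed here are ratios of single libraries that point in opposite directions in different tissues or sexes, and these differences were not tested. Female over male miR-146a-5p was 0.777 in white muscle, 5.88 in red muscle and 0.745 in brain. Red over white muscle for miR-146a-5p was 1.71 in females and 0.226 in males. Female over male miR-146a-3p was 1.97 in white muscle, 0.527 in red muscle and 1.56 in brain, the last with an interval that holds 1 (0.924 to 2.66). Each of these contrasts includes a red muscle library, or is set against one that does.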

How the results depend on the processing

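Leaving out each library in turn moved the log2 fold change of miR-146a-5p between -2.74 and -1.25 for brain over muscle, between -1.90 and 0.38 for red over white muscle and between -0.26 and 0.99 for female over male, and that of miR-146a-3p for female over male between -0.41 and 0.99. The numbers of entries called then ran from 175 to 321 (312 with all libraries) for brain over muscle, from 5 to 78 (55) for red over white muscle and from 5 to 62 (45) for the trend. Without male brain, without female white muscle and without 4 dpf these were the lowest. With library totals alone edgeR called 33 entries for red over white muscle and 0 for the trend (65 at an unadjusted p under 0.05). The slope of miR-146a-5p was then 0.16. DESeq2 with its own size factors called 84 for red over white muscle and 73 for the trend, and edgeR with DESeq2 size factors called 39 and 51. With the day in place of its log2, edgeR called 17 for the trend. The sex difference of miR-146a-3p was -0.086 with DESeq2 size factors, -0.028 with no filter on low counts and -0.081 with DESeq2. Ovary over testis was 3.88 with whole-number totals, 4.82 without the most abundant miRNA, 3.20 with TMM and 6.01 with DESeq2 size factors, and 3 dpf over 2 dpf was 13.5, 8.26, 3.11 and 1.04 in the same order. The causes of these changes were not tested. With the replicate number, which here is sex, as a block, miR-146a-5p gave -2.27 for brain over muscle (edgeR, adjusted p = 0.00879, 297 entries called) and -0.44 for red over white muscle (adjusted p = 0.864, 42 entries called), so no call on miR-146a changed. By their titles, libraries of the same replicate number are not from a shared fish throughout, though both female muscle libraries may be. The correlations of the female libraries' deviations were -0.04 (brain and red muscle), -0.14 (brain and white muscle) and -0.36 (red and white muscle). Fish and sex cannot be told apart in these deviations, so they do not decide whether libraries share a fish. DESeq2 gave no adjusted p for either arm in stages over adult tissues. The scalings of miR-146a-3p were added after the data were seen. Of the levels, those of the 3p arm were the least precise, with as few as 11 reads (eye), whereas miR-146a-5p had at least 3323 reads (2 dpf).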

Other observations

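Other miRNAs with reads in all 16 libraries stood out in ovary beside miR-146a, and they were chosen after their values were seen. miR-143-3p had 76654 CPM in ovary, against a median of 2676 CPM in the other 15 libraries, a ratio of 28.6. miR-731-3p, with 1153 CPM in ovary against a median of 128.3 CPM, gave 8.99, and let-7d-5p, with 25151 CPM against 2814 CPM, gave 8.94. Both arms of mir-146a were thus among the 5 largest of 92 such ratios, and 11 of the 92 miRNAs had their highest level in ovary. The smooth muscle list, miR-143 and miR-145, summed to 80925 CPM in ovary and was higher in testis alone, with 126432 CPM.

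The red blood cell list was unequal within ovary. miR-144-3p had 2833 CPM there, against 113 CPM of miR-144-5p and 51.0 CPM of miR-451-5p-2. At 3 dpf, where the list was highest, miR-144-5p led with 24040 CPM and miR-144-3p had 723 CPM.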
